A study of Mus musculus with 8 samples.

Results

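The Id proteins and the basic helix-loop-helix (bHLH) repressors Msc, Twist1, Hes1 and Hey1 were followed in RNA of cultured mouse myotubes, the multinucleated muscle cells formed when myoblasts fuse. The 8 genes were chosen by gene name, with earlier results of these data known, out of 18193 genes with a probe set of their own. All 12 probe sets annotated to them alone were read. The series asks which genes are regulated by Egr3, a zinc-finger transcription factor needed for muscle spindles. Total RNA from 4 sources was hybridised to 1 array of type A and 1 of type B each. The labels describe 1 RNA as truncated Egr3 and 1 as wildtype, both from a growth treatment. They give RNA275 an acclimatization treatment and RNA276 no treatment, so these RNAs belong to no group. Their values are given, and they enter the comparisons across all 4 RNAs and with the labelled RNAs. How the truncated Egr3 was made or brought into the cells, which animals the cells came from, and whether wells were pooled are not stated in the labels. With 1 RNA per label no test between cultures could be run, and every difference describes these RNAs.

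Id proteins have a helix-loop-helix but no basic DNA-binding region. They pair with E proteins such as Tcf3, Tcf4 and Tcf12 and keep them from pairing with MyoD and myogenin, which holds back muscle differentiation. Id genes are classic targets of BMP signalling through Smad proteins. Msc (musculin, also called MyoR) and Twist1 are bHLH factors that bind DNA and oppose MyoD in muscle precursors. Hes1 and Hey1 are repressors switched on by Notch signalling through Rbpj.

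The promoter windows of 3 of the 4 Id genes are shown because the Id genes gave different patterns across the RNAs and because the series is about an Egr factor. Each window runs from 250 bases before to 50 bases after the RefSeq gene start (GRCm38.p6), 5′ to 3′ on the gene's strand. Capitals mark matches to the Egr motif GCGNGGGCG, the Rbpj motif GTGGGAA or the E-box CANNTG, each searched on both strands.
Id2, chr12:25096043-25096342, minus strand: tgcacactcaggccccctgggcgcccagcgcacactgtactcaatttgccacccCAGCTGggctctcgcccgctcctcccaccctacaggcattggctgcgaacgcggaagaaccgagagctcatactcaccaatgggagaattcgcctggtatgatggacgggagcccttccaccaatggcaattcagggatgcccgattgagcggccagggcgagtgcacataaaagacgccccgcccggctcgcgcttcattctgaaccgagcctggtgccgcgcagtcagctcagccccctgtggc
Id3, chr4:136143572-136143871, plus strand: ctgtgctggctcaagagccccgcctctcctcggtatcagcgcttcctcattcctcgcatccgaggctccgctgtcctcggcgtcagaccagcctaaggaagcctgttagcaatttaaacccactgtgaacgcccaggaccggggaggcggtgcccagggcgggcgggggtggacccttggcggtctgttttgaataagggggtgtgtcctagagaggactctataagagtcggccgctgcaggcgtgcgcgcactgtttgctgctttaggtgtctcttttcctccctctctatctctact
Id4, chr13:48260866-48261165, plus strand: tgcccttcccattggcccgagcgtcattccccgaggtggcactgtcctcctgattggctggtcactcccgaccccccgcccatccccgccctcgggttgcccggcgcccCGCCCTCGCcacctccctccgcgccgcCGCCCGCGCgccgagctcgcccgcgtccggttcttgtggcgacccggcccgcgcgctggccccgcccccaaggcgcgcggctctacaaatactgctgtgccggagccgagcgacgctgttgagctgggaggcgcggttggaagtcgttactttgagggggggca

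Windows were found for 4 of the 8 genes in the RefSeq table, the fourth being Twist1. The Id4 window held 2 matches to the Egr motif, both on the opposite strand, starting 141 and 114 bases before the gene start. The Id2, Id3 and Twist1 windows held no such match, and 5.55% of all 32851 promoter windows held at least 1. The E-box in the Id2 window began 196 bases before the start; 72.3% of windows held an E-box. No member window held the Rbpj motif, which 6.38% of windows held, or the cyclic AMP response element TGACGTCA, which 1.79% held. The GC-rich Smad motif GGCGCC was found in the Id2 and Id4 windows and in 11.9% of all windows. The Hes-type N-box CACNAG was found in the same 2 windows and in 42.5% of all. In Id2 and Id4 these motifs did not overlap one another. A match describes the letters and is not evidence of binding.

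All 12 probe sets were on array type A, and none was on type B. Signals are the deposited intensities on a linear scale, and the type A arrays shared a trimmed mean of 150.0. Signals under 67.6, the 50th percentile of the truncated-Egr3 and wildtype arrays pooled, were raised to that floor before log2 differences were taken. Where 1 of the 2 labelled RNAs was under the floor, the difference is a bound, given as "at least". Of the 8 genes, 6 were above the floor in at least 1 labelled RNA. Id4 and Twist1 were under it in both. The myotube markers (Myh3, Ckm, Ttn and others) were above the floor for 11 of 11 genes in every RNA. Their median log2 signal was 10.70 with truncated Egr3, 10.85 in wildtype, 10.93 in RNA275 and 11.20 in RNA276. Single markers could differ more: Ttn read 1627, 1850, 704 and 354 in the same RNAs. Of the 6 satellite cell and myoblast markers, Sdc4 and Cd34 were above the floor in both labelled RNAs. Pax3, Myf5 and Chrdl2 were above it in neither. Pax7 was under it by its type A probe set. By its type B probe set Pax7 read 416 with truncated Egr3 and 354 in wildtype, above the type B floor of 112.6. The RNAs stood apart in interferon-induced genes: the median log2 signal of 8 such genes was 6.08, which is the floor, in the truncated-Egr3 RNA, 9.03 in the wildtype RNA, 9.08 in RNA275 and 11.01 in RNA276.

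Between the labelled RNAs, Id1, Id3, Msc and Hey1 had lower signal with truncated Egr3, and Hes1 and Id2 had higher signal. Among all measured type A genes, 51.4% had lower signal with truncated Egr3. With this floor, no measured member of the 6 reached 2-fold. The differences of Id2, Msc and Hey1 are bounds and may be larger, and Msc and Hey1 passed 2-fold with a lower floor. Of 10307 measured genes, 1.13% were lower in the truncated-Egr3 RNA by 2-fold or more (116 genes) and 0.534% were higher (55 genes). That split depends on the scale: with the array medians made equal it was 93 lower and 87 higher. At 1.5-fold, Id1 and Hey1 were lower and no member was higher, against 4.59% of measured genes lower and 4.7% higher. The median log2 difference of the 6 members was -0.52, and that of all measured genes was 0.00065. The arrays of types A and B share 100 probe sets, and their disagreement gave a technical SD of 0.179 for 1 log2 difference, with a mean of -0.14 for type A minus type B. Those probe sets are brighter than most members, with a median signal of 346 on type A. Probe sets of the same gene disagreed more: the SD per probe set was 0.284 for 1414 pairs on type A whose brighter member read between 135 and 270.2. The spread between cultures was not measured.

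**Figure D1:**
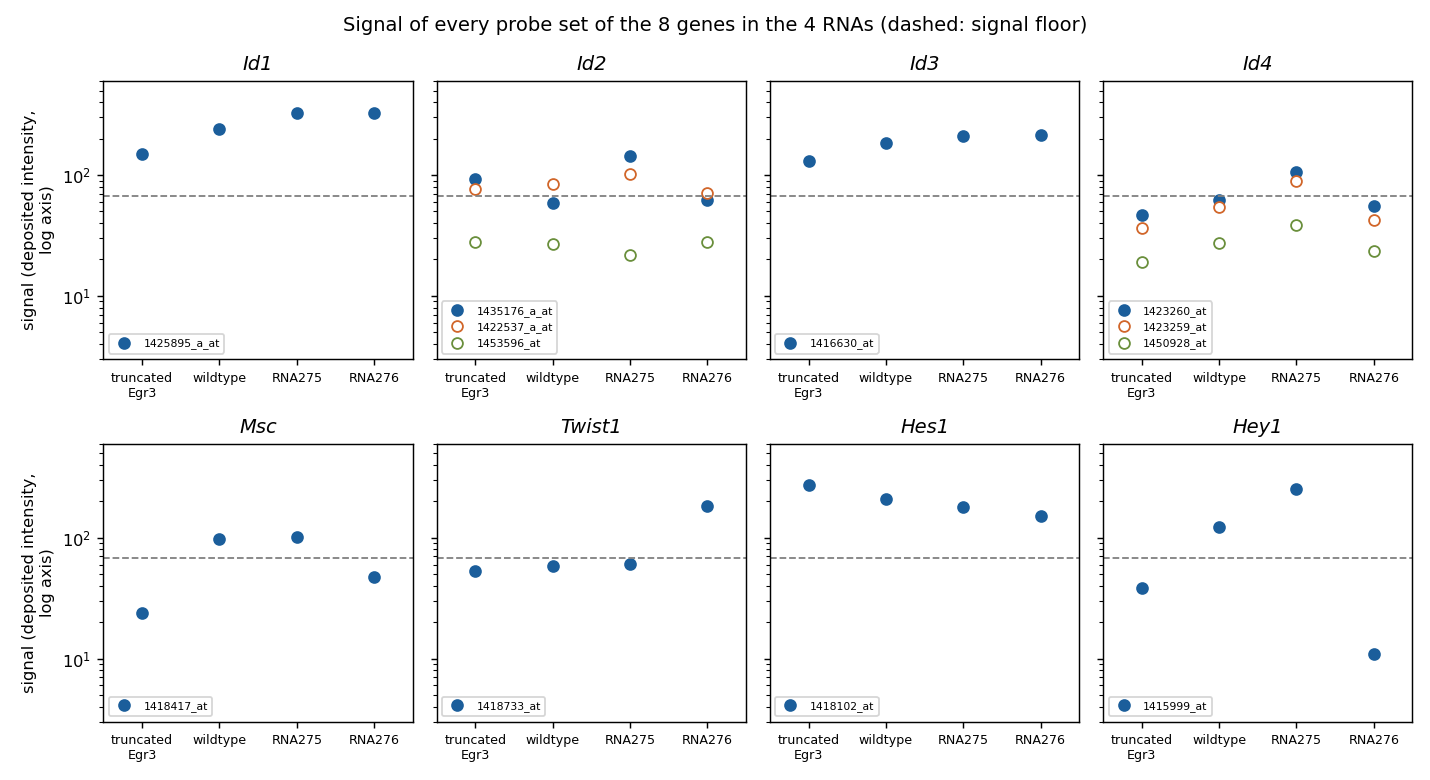
Deposited signal (log axis) of every probe set of the 8 genes in the truncated-Egr3, wildtype, RNA275 and RNA276 RNAs; filled points are the brightest probe set of each gene, open points its other probe sets, and the dashed line is the floor of 67.6. Id1 and Id3 are lowest and Hes1 is highest in the truncated-Egr3 RNA, Twist1 is above the floor in RNA276 alone, and Hey1 runs from 10.8 in RNA276 to 254 in RNA275.

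Id1, which blocks E protein pairing and is strongly induced by BMP signalling, read 149.5 in the truncated-Egr3 RNA, 242 in the wildtype RNA, 327 in RNA275 and 324 in RNA276 (probe set 1425895_a_at). The truncated-Egr3 RNA was the lowest of the 4, and the 2 unassigned RNAs were level with each other. The log2 difference of truncated Egr3 minus wildtype was -0.69, or 1.62-fold lower. Of 7239 measured type A genes, 2.96% were lower by as much or more. Id1 had no other probe set to set beside it.

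Id3, which acts like Id1 and is often expressed with it, read 130.4 in the truncated-Egr3 RNA, 185 in the wildtype RNA, 209.7 in RNA275 and 213 in RNA276 (1416630_at). The order matched that of Id1 except that the unassigned RNAs, close together in both genes, changed places. The log2 difference was -0.50, or 1.42-fold lower with truncated Egr3, and 6.12% of measured type A genes were lower by as much. By the brightest probe set of each gene, Id1, Id3 and Hes1 were above the floor in all 4 RNAs and the other 5 members were not.

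Id2, which likewise pairs with E proteins, gave no settled direction. Its brightest probe set (1435176_a_at) read 92.8 in the truncated-Egr3 RNA, 59.0 in the wildtype RNA, 145 in RNA275 and 62.0 in RNA276, a log2 difference of at least 0.46. A second probe set (1422537_a_at) read 77.4 in the truncated-Egr3 RNA, 83.5 in the wildtype RNA, 101 in RNA275 and 70.9 in RNA276, a log2 difference of -0.11. The signs disagreed, although both probe sets were highest in RNA275. The third (1453596_at) stayed between 21.8 and 27.9, under the floor in every RNA.

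Id4, the Id protein best known from the nervous system, was under the floor in both labelled RNAs by all 3 of its probe sets. The brightest (1423260_at) read 47.0 with truncated Egr3, 61.7 in the wildtype RNA, 107 in RNA275 and 55.6 in RNA276. The second (1423259_at) read 36.4, 54.0, 89.7 and 42.1 in the same RNAs, and the dimmest (1450928_at) read 19.2, 27.5, 38.3 and 23.4. All 3 ranked the RNAs alike, highest in RNA275 and lowest with truncated Egr3, but they are annotated to 1 sequence record and are not independent. Only RNA275 was above the floor, by 2 of the 3 probe sets. Because both labelled values lay under the floor, no difference is given for Id4.

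Msc, the musculin repressor of myogenic bHLH factors, read 23.6 in the truncated-Egr3 RNA, 97.9 in the wildtype RNA, 100.5 in RNA275 and 47.5 in RNA276 (1418417_at). The wildtype RNA and RNA275 were alike and above the floor, and the other 2 RNAs were under it. The log2 difference was at least 0.54 in size, so the signal was at least 1.45-fold lower with truncated Egr3. With a lower floor of 44.0 the difference was still a bound, at -1.15, past 2-fold.

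Twist1, which keeps mesenchymal precursors undifferentiated, read 52.9 in the truncated-Egr3 RNA, 58.0 in the wildtype RNA, 60.4 in RNA275 and 182 in RNA276 (1418733_at). The first 3 were under the floor and near each other, and RNA276 alone was above it, at least 2.69-fold over the lowest.

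Hes1, the Notch-induced repressor, read 273 in the truncated-Egr3 RNA, 207 in the wildtype RNA, 179 in RNA275 and 150.2 in RNA276 (1418102_at). It was the 1 member highest in the truncated-Egr3 RNA. The log2 difference was 0.39, or 1.31-fold higher with truncated Egr3, and 11.3% of measured type A genes were higher by as much. A difference of this size was thus common among the genes measured.

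Hey1, another Notch-induced repressor, read 38.5 in the truncated-Egr3 RNA, 124 in the wildtype RNA, 254 in RNA275 and 10.8 in RNA276 (1415999_at). The wildtype RNA and RNA275 were above the floor, the other 2 RNAs under it. Signal was at least 1.83-fold lower with truncated Egr3 than in wildtype, a log2 difference of at least 0.87 in size. With the lower floor this bound was -1.49, and with a higher floor of 101.5 it was -0.28, so its size rests on the floor. Hey1 and Hes1, both Notch targets, thus differed in opposite directions between the labelled RNAs.

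**Figure D2:**
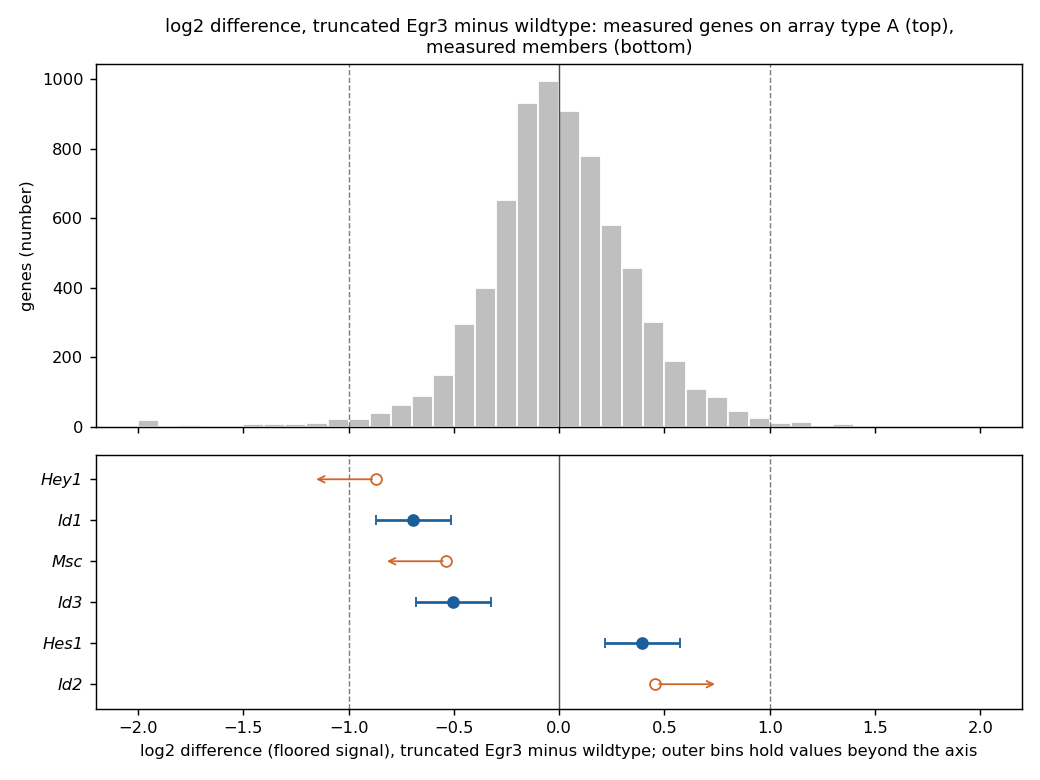
Top, number of genes by log2 difference (truncated Egr3 minus wildtype) for 7239 measured genes on array type A; bottom, the 6 measured members, with filled points for differences measured in both RNAs (bars: technical SD of 0.179) and open points with arrows for bounds. Dashed lines mark 2-fold; Hey1, Id1, Msc and Id3 lie left of 0, from -0.87 to -0.50, Hes1 and Id2 lie right of it at 0.39 and 0.46, and no point passes 2-fold, though the true size of the 3 bounds is unknown.

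Across all 4 RNAs the members spread widely. The highest signal was at least 2-fold over the lowest for 4 of the 8 genes, against 14.8% of the 11154 genes above the floor in at least 1 RNA. These were Hey1 (at least 3.76-fold), Twist1 (at least 2.69-fold), Id1 (2.18-fold) and Id2 (at least 2.15-fold, by the probe set whose sign between labelled RNAs was not shared). The median span was 0.98 in log2 for the members and 0.54 for all genes. Taking the highest of 4 arrays over the lowest draws in the unassigned RNAs, and RNA275 was the highest for 5 members, RNA276 for 2 and the truncated-Egr3 RNA for 1. The truncated-Egr3 RNA was the lowest for 5 of the 8 (Id1, Id3, Id4, Msc and Twist1), although for Id4, Msc and Twist1 its signal lay under the floor. These ranks use signals before the floor was applied. The share of all genes highest or lowest in each RNA was not computed, so the rank counts have no background to be read against.

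**Figure D3:**
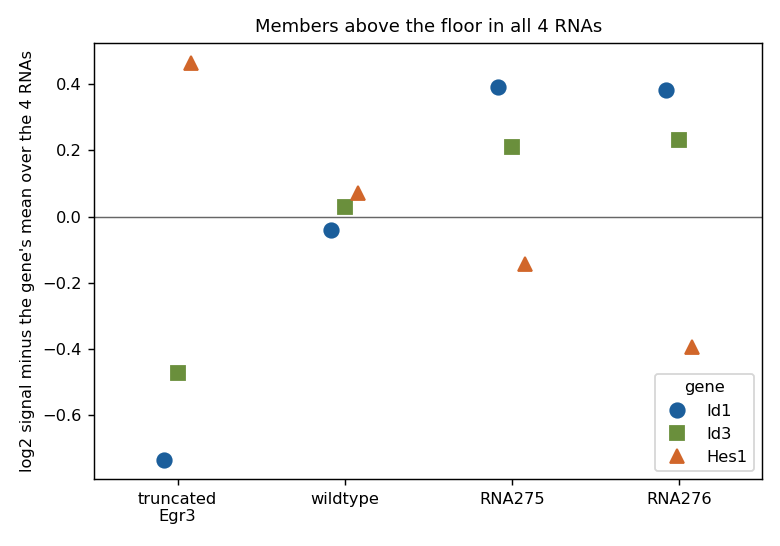
Log2 signal minus the gene's own mean over the 4 RNAs, for the 3 members above the floor in all 4 by their brightest probe set (Id1 circles, Id3 squares, Hes1 triangles). Id1 and Id3 are lowest with truncated Egr3 and highest in the 2 unassigned RNAs, and Hes1 runs the other way.

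Genes of like pattern were sought among 8413 other genes above the floor in all 4 RNAs, by the distance between log2 signals centred on each gene's mean. Nearest to Id1 were Acad12 (distance 0.11), the hyaluronan receptor gene Cd44 (0.15) and Bend3 (0.15). Cd44 read 449.8 in the truncated-Egr3 RNA, 638 in the wildtype RNA, 917 in RNA275 and 958 in RNA276. Nearest to Id3 were 4930542D17Rik, Banf2 and Pik3r6, at distances of 0.034, 0.038 and 0.05. Nearest to Hes1 were Sympk, Prkab2 and Sorcs2, at 0.046, 0.059 and 0.072. Id3 was only the 63rd nearest gene to Id1, at 0.36, since the differences of Id1 were larger. With 4 RNAs many genes match by such a measure, and nothing about shared control follows from it.

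Of the 3 E proteins that Id proteins bind, none was 2-fold apart between the labelled RNAs, and their median log2 difference was -0.08. Tcf12 read 515 in the truncated-Egr3 RNA, 413 in the wildtype RNA, 547 in RNA275 and 414 in RNA276, a log2 difference of 0.32. Its 4 other measured probe sets gave log2 differences of -0.11, -0.21, -0.35 and -0.42. Tcf3 (281 with truncated Egr3 against 339 in wildtype) and Tcf4 (608 against 644) had log2 differences of -0.27 and -0.08. The second Tcf3 probe set was at 0.087. By 4 other measured probe sets Tcf4 ranged from -0.22 to 0.34. In RNA276 Tcf4 read 247, the lowest of its 4 values. Of the myogenic bHLH factors that compete for these partners, Myod1 and Myog had log2 differences of -0.39 and -0.35, the same sign as Id1 and Id3. Myf6 read 229 in the truncated-Egr3 RNA, 73.7 in the wildtype RNA, 65.0 in RNA275 and 220 in RNA276. It was 3.10-fold higher with truncated Egr3 than in wildtype, but RNA276 was near the truncated-Egr3 value. Myf5 was under the floor in both labelled RNAs.

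In the BMP and TGF-beta list, which feeds into the Id genes, 16 of 30 genes were measured, none was 2-fold higher and 1 was 2-fold lower. The median log2 difference was 0.05, with 9 members above 0. The ligand gene Tgfb1 read 266 in the truncated-Egr3 RNA, 603 in the wildtype RNA, 1182 in RNA275 and 286 in RNA276, 2.27-fold lower with truncated Egr3, while the other Tgfb1 probe set was at -0.12 in log2. The receptor gene Bmpr1a read 430.4 with truncated Egr3 and 302 in wildtype, a log2 difference of 0.51, and its 3 other probe sets were at 0.0034, 0.13 and 0.23. Smad1 (203 against 173) and Smad4 (473 against 505), which carry the signal to the nucleus, had log2 differences of 0.23 and -0.09. Their other measured probe sets were at 0.066 for Smad1 and at 0.13 and 0.086 for Smad4. The inhibitory Smad gene Smad7 had one of 0.67, and Fst, encoding the secreted BMP and activin antagonist follistatin, one of -0.75, with the other probe set at -0.70. The ligand genes Bmp2, Bmp4, Bmp5 and Bmp7 were under the floor in both labelled RNAs. Bmp6 read 32.3 in the truncated-Egr3 RNA, 76.8 in the wildtype RNA, 143.9 in RNA275 and 32.1 in RNA276. It was lower with truncated Egr3 than in wildtype by at least 0.18 in log2. The receptor genes Bmpr2, Bmpr1b and Acvrl1 were not counted, being under the floor by type A. By type B, Bmpr2 read 1833 with truncated Egr3 and 1840 in wildtype, with another probe set at -0.78 in log2. Bmpr1b read 181 and 183 by type B, and Acvrl1 74.1 and 134, in the same 2 RNAs.

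In the Notch list, which feeds into Hes1 and Hey1, 16 of 26 genes were measured, 1 was 2-fold higher and none 2-fold lower, with a median log2 difference of -0.14. Dlk1, a Delta-like membrane protein, was 2.50-fold higher with truncated Egr3. It read 686 in the truncated-Egr3 RNA, 274.6 in the wildtype RNA, 1409.5 in RNA275 and 1666 in RNA276, so the wildtype RNA was the low one of the 4. Its type B probe set was at least 0.11 higher in log2. The receptor gene Notch3 had log2 differences of 0.49 and 0.92 by its 2 probe sets. Rbpj, the DNA-binding partner of Notch, had 0.24, 0.47 and 0.56 by 3. Like Hes1, these were higher with truncated Egr3, but of the 16 measured genes 7 were above 0 and 9 below. Among those below were Numbl, at -0.63, and the ligand gene Dll1 (143 against 215), at -0.58. Notch1 was at -0.24 by its brighter probe set and at 0.63 by the other. Jag1 was not counted, being under the floor by type A, but read 740 with truncated Egr3 and 656 in wildtype by type B.

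Other bHLH repressors and inhibitors of the myogenic factors showed no 2-fold difference among 14 measured of 23 on the arrays, and their median was -0.12. Snai1, a zinc-finger repressor that competes for E-boxes, had the largest difference, at 0.85 (176 with truncated Egr3 against 97.7 in wildtype). Bhlhe40, a repressor related to the Hes genes, had 0.50 (559.9 against 397). Heyl, a relative of Hey1, had -0.14 (88.0 against 96.9), and Hes6, which favours muscle differentiation by opposing Hes1, had -0.38 by its brighter probe set and -0.34 by the other. Hes5, Hes7 and Hey2 were under the floor in both labelled RNAs. Tcf21 was not counted, being under the floor by type A, but read 240 with truncated Egr3 and 211 in wildtype by type B.

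**Figure D4:**
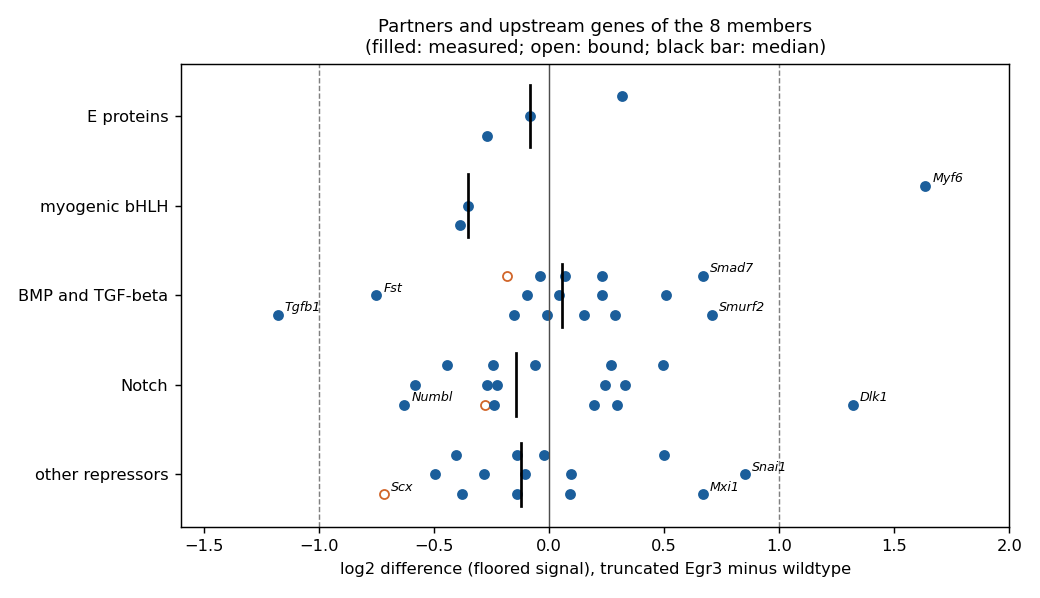
Log2 difference (truncated Egr3 minus wildtype) of each measured gene of 5 lists, with filled points for measured differences, open points for bounds, black bars for list medians and dashed lines at 2-fold. Medians run from -0.35 (myogenic bHLH) to 0.05 (BMP and TGF-beta); Myf6 and Dlk1 lie right of 2-fold, and Tgfb1 left of it.

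Some markers of other cells and of cycling cells differed in the same direction as Id1 and Id3. Of all measured genes 49.9% were lower with truncated Egr3, and of those on type A 51.4%. All 5 measured cycling genes were lower with truncated Egr3 (median log2 difference -0.43), and the summed signal of the list was 1666 in the truncated-Egr3 RNA, 2523 in the wildtype RNA, 2414 in RNA275 and 3694 in RNA276. Pcna made up 1965 of the sum in RNA276, where Mki67 (49.5) and Top2a (277, by its type A probe set) were at their lowest of the 4 RNAs. All 4 measured smooth muscle and pericyte markers were lower as well (median -0.46), with sums of 4459, 6073, 5073 and 5152 in the same RNAs, and their defining markers Myh11, Cnn1 and Rgs5 were under the floor in both labelled RNAs. Of 8 fibroblast markers 5 were measured, with a median of 0.08 and Dcn 2.02-fold higher with truncated Egr3. Of 6 endothelial markers only Kdr was above the floor in a labelled RNA, and Pecam1 and Cdh5 were not. Of 8 macrophage markers 2 were above it, and Ptprc and Adgre1 were not. Of 5 Schwann markers 3 were on the arrays. Ngfr read 15.5 with truncated Egr3, 128 in wildtype, 353 in RNA275 and 24.9 in RNA276, the same order as Hey1 but for the lowest 2. Sox10, the other measured Schwann marker, was level at -0.02 (85.6 with truncated Egr3 against 87.0 in wildtype), and S100b was under the floor in both labelled RNAs. The part of cycling cells or of other cell types in the differences of the members was not tested, and in bulk RNA fewer cells of a type and less RNA per cell cannot be told apart.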

How the data were processed

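Total RNA of mouse myotubes was read on 8 oligonucleotide arrays, 1 of type A and 1 of type B for each of 4 RNAs. The deposited values are intensity values per probe set on a linear scale, per the file headers and the values themselves; no source used here names the software or settings of the authors. The mean after trimming 2% from each end was 150.0 on all 8 arrays, and this scale was kept. It assumes that the RNAs have a like total signal.

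Probe sets were named by the platform table, with symbols updated by gene number through RefSeq (GRCm38.p6). On type A, 20380 probe sets had 1 symbol, 691 had several and were not used, and 20351 matched by gene number; on type B the numbers were 14661, 245 and 14486. The probe set with the highest mean signal stood for a gene, from type A where it had one there. Floors were the 50th percentile of the labelled arrays on type A (67.6) and the 60th on type B (112.6). A gene was measured when at least 1 labelled RNA was above the floor, which left 10307 genes. Log2 differences are truncated Egr3 minus wildtype. No p-value was computed, since there is 1 RNA per label. The number of arrays limits the precision.

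The members and lists were chosen with earlier results of these data known. Named genes are the 8 members, the 3 nearest in pattern to each member above the floor in all RNAs, and from each list the genes 2-fold apart or else the largest difference; the other list genes were named after their values were seen. The counting was tested on simulated data. Alternatives were 3 other scalings, 3 floors, 2 thresholds and 3 rules for choosing or combining probe sets. A further one left out probe sets whose names end in _a_at, _s_at or _x_at. Python 3.11.15, numpy 2.4.6, pandas 2.3.3, statsmodels 0.14.6 and matplotlib 3.10.9 were used.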

Additional observations from a re-analysis of the deposited data

Results flagged for a closer look

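The signal of 2 members in an RNA without a group was at least 2-fold above both labelled RNAs and the floor. Twist1 read 182 in RNA276, against 52.9 in the truncated-Egr3 RNA and 58.0 in the wildtype RNA, which is 2.69-fold above the floor. Hey1 read 254 in RNA275, against 38.5 in the truncated-Egr3 RNA and 124 in the wildtype RNA, which is 2.06-fold above the higher of them. Among 11154 genes above the floor in at least 1 RNA, 1.41% were at least 2-fold above both labelled RNAs in RNA275 and 1.7% in RNA276. Each gene has 1 probe set and each RNA 1 array of its type, so neither value has a repeat.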

How the results depend on the processing

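Over the scalings, floors and probe-set rules that gave a value, Id1 stayed between -0.71 and -0.63, Id3 between -0.53 and -0.44 and Hes1 between 0.37 and 0.46 in log2. Each of these genes has 1 probe set, above every floor used in both labelled RNAs. The floors and probe-set rules therefore could not change its value, and only the scalings could. Msc ranged from -2.05 with no floor to -0.49 with loess, Hey1 from -1.68 with no floor to -0.28 with the higher floor, and Id2 from -0.11 by its second probe set to 0.65 with no floor. The Msc and Hey1 values taken with a floor are bounds. The count of members at least 2-fold lower with truncated Egr3 was 2 with the lower floor, where 1.53% of genes were, 2 with no floor, where 6.65% were (Msc and Hey1 in both), and 2 with the threshold at 1.5-fold (Id1 and Hey1), where 4.59% were; no alternative gave a member at least 2-fold higher. Members spanning 2-fold over the 4 RNAs numbered 6 with the lower floor (16.9% of genes) and with no floor (33.2%), 3 with the median of probe sets (11.3%), 2 with the higher floor (13.0%), 7 at 1.5-fold (45.0%) and 1 at 3-fold (3.49%). They numbered 2 without probe sets whose names end in _a_at, _s_at or _x_at (15.3%). That rule leaves out the only Id1 probe set and both brighter Id2 probe sets, whose names end in _a_at. Genes at least 2-fold higher with truncated Egr3, 55 in the deposited scale, numbered 87 with equal medians, 84 with the lower floor, 603 with no floor and 141 by probe set; at 1.5-fold they numbered 484 and at 3-fold 8. Genes at least 2-fold lower, 116 in the deposited scale, numbered 185 with the lower floor, 76 with the higher floor, 1206 with no floor and 177 by probe set; at 1.5-fold they numbered 473 and at 3-fold 38. Floors and thresholds move these counts by construction. With equal medians 0.905% of genes were lower and 0.847% higher, and the median of all measured genes was 0.089. With the higher floor Id2 and Msc had no value. Dim signals limit Id2, Id4, Msc, Twist1 and Hey1. No paired analysis was possible because each label has 1 RNA, and its arrays of types A and B are the same RNA, not replicates.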
